A study of Mus musculus with 6 samples.

Results

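Matrix metalloproteinases (MMPs), the ADAM and ADAMTS proteases, the ADAMTS-like proteins and the tissue inhibitors of metalloproteinases (TIMPs) were examined in cystic mouse kidneys with and without the microRNA miR-214. The members were the genes whose symbol starts with Mmp, Adam, Adamts or Timp followed by a number, or with Adamtsl, and 4 genes that match this pattern (Mmp7, Mmp8, Mmp9 and Timp1) were left out of the set. The authors' deposited table lists 20138 genes, and 67 of them were members: 18 were MMPs, 22 ADAMs, 19 ADAMTS proteases, 5 ADAMTS-like genes and 3 TIMPs. The study compared whole kidneys of 3 Pkd2-miR-214-KO mice (Pkhd1Cre, floxed Pkd2 and a miR-214 null allele) with those of 3 Pkd2-KO mice (Pkhd1Cre and floxed Pkd2) at postnatal day 35. Both genotypes lack Pkd2, which encodes the cation channel polycystin-2, in the tubule cells where the Pkhd1 promoter drives Cre, so both are models of cystic kidney, and no genotype with intact Pkd2 is part of the comparison. The table gives fitted values over all animals. Values per animal and the sequencing depth were not analysed here, so no mean or SD per genotype stands beside the folds, and no library can be left out.

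The proteases of these families are zinc enzymes that share a catalytic domain held inactive by a prodomain. MMPs cut collagens, proteoglycans and other matrix proteins, ADAMs release growth factors, cytokines and adhesion molecules from the cell surface, and ADAMTS enzymes are secreted into the matrix, where they trim procollagens, proteoglycans and von Willebrand factor. ADAMTS-like proteins carry the ancillary domains of ADAMTS enzymes without the protease, and several of them bind fibrillin microfibrils. TIMPs block the active site of MMPs, and Timp3 also that of several ADAMs and ADAMTS enzymes. In the kidney these families act on the tubular basement membrane, on the interstitial matrix that expands around cysts, and on the shedding of epithelial growth factors.

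miR-214 silences transcripts by pairing of its seed, bases 2 to 8, with a 7-base match in a 3' untranslated region (UTR). The sequence is shown because it is what the Pkd2-miR-214-KO animals lack, with the seed in capitals. It lies at chr1:162223438-162223459 on the plus strand (RefSeq, GRCm38.p6, the assembly of mm10).
miR-214-3p: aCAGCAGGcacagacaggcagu
The matching DNA letters in a transcript are CCTGCTG. With the longest 3' UTR that GENCODE M21 (mm10) annotates per gene, 21 of the 67 members held at least 1 such match (31.3%), against 4057 of 16896 protein-coding genes of the table (24.0%). The UTRs of the members were longer, with a median of 1816 bases against 1192 bases over the protein-coding genes, and a longer UTR holds more matches of any letters. The 21 members held 24 matches in all, with 3 in Mmp25 and 2 in Timp4. A single match, that of Adam1a, was followed by an A, which makes it an 8-base site.

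The matches below include those of the 4 members with a match among the 6 that had a negative fold at an unadjusted p under 0.05. Of the 2 members with a positive fold at this limit, 0 held a match. The other matches shown are those of Adam17, a main sheddase of the kidney, and of Adam1a. Each is printed on the transcribed strand with the 7 matching bases in capitals.
Adamtsl2 at chr2:27108567-27108595, plus strand: gatggagccacCCTGCTGcggaagctgca
Adamts17 at chr7:67152690-67152718, plus strand: tggtgtccttcCCTGCTGtggcagtagcc
Mmp17 at chr5:129610351-129610379, plus strand: agggctctctcCCTGCTGcccaggcccct
Mmp25 at chr17:23631428-23631456, minus strand: tatcaccccgcCCTGCTGggttgcaccgc
Mmp25 at chr17:23630599-23630627, minus strand: ctgtcgcccctCCTGCTGcctctcctacc
Mmp25 at chr17:23630304-23630332, minus strand: agaggggcgtgCCTGCTGtagctactaga
Adam17 at chr12:21333982-21334010, minus strand: gaacaacgacaCCTGCTGcaatagtgact
Adam1a at chr5:121523616-121523644, minus strand: gctctcctgtgCCTGCTGacctccagtgc
A match is a description of the letters and does not show that the microRNA binds there. Loss of silencing would raise a transcript in Pkd2-miR-214-KO kidneys, where the 4 members picked by a negative fold had lower fitted levels. The part of the matches in these folds was not tested.

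Matches and folds were then set side by side. In the authors' deposited table the 21 members with a match had 6 positive log2 folds and a median of -0.26, and the 46 members without one had 22 positive folds and a median of -0.02. Positive folds mean higher expression in Pkd2-miR-214-KO than in Pkd2-KO kidneys. Over the protein-coding genes of the authors' deposited table the median log2 fold was -0.02 with a match and 0.0041 without one. Among members with a mean level of at least 1 CPM (library-scaled counts, a mean log2 CPM of 0), 4 of 18 with a match and 16 of 32 without one had a positive log2 fold in the authors' deposited table, beside 49.6% of all genes at that level. The median UTR of these members was 3128.5 bases with a match and 1412.5 bases without, so presence of a match and UTR length go together and their part in the folds was not tested. Adam17 (-0.11 ± 0.20, approximate SE) and Adam1a (-0.55 ± 0.54), 2 of the members with a match shown above, had log2 folds within 2 SE of 0 in the authors' deposited table.

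**Figure D1:**
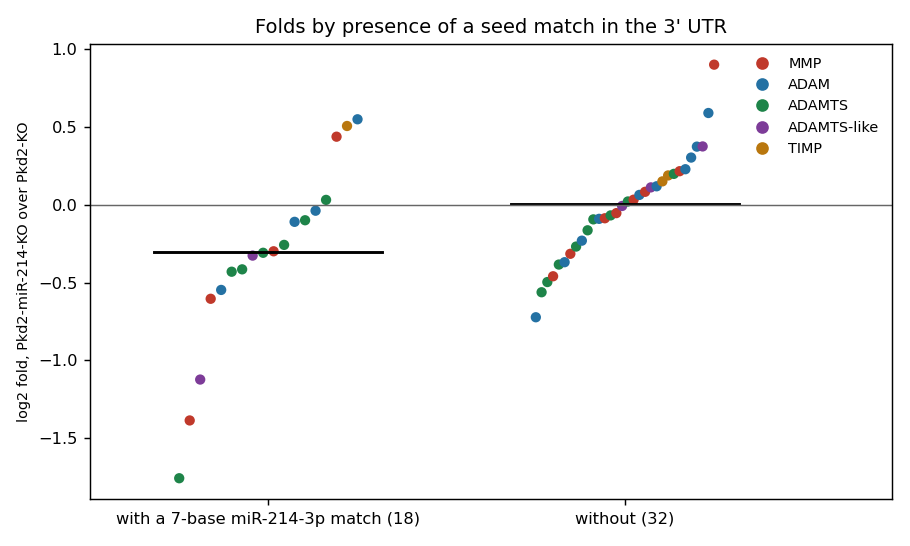
Fitted log2 fold of each of the 50 members with a mean log2 CPM of at least 0 (y axis), split by a 7-base miR-214-3p match in the longest 3' UTR, each point 1 gene and the black line the median. The 18 genes with a match have a median of -0.30 and the 32 without one a median of 0.01, and the 3 lowest genes (Adamts17, Mmp25 and Adamtsl2) all hold a match. A negative fold is a lower level in the kidneys without miR-214.

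Levels in kidney were compared between members per length of annotated exon. Timp3, the inhibitor that binds to the matrix, had the highest mean level with 182 CPM per kb of exon, followed by Timp2 with 94.1 CPM per kb, both from the mean CPM in the authors' deposited table. Among the proteases the highest mean levels were those of the sheddases Adam10 (46.3 CPM per kb) and Adam9 (40.0), of Adamts1 (36.2), and of the gelatinase Mmp2 (25.2) with its membrane-bound activator Mmp14 (21.1), from the authors' deposited table. Adam15 (12.7), Adam17 (12.1) and the procollagen N-proteinase Adamts2 (10.3) were the other members above 10 CPM per kb computed from the authors' deposited table. No spread between animals stands behind these levels, so neighbours in this order cannot be told apart. Mean levels under 1 CPM were found for 17 of the 67 members (25.4%), a share near that of all genes (27.9%). These 17 include most ADAMs that are typical of testis and epididymis, among them Adam2, Adam3 and Adam18, proteins of sperm.

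**Figure D2:**
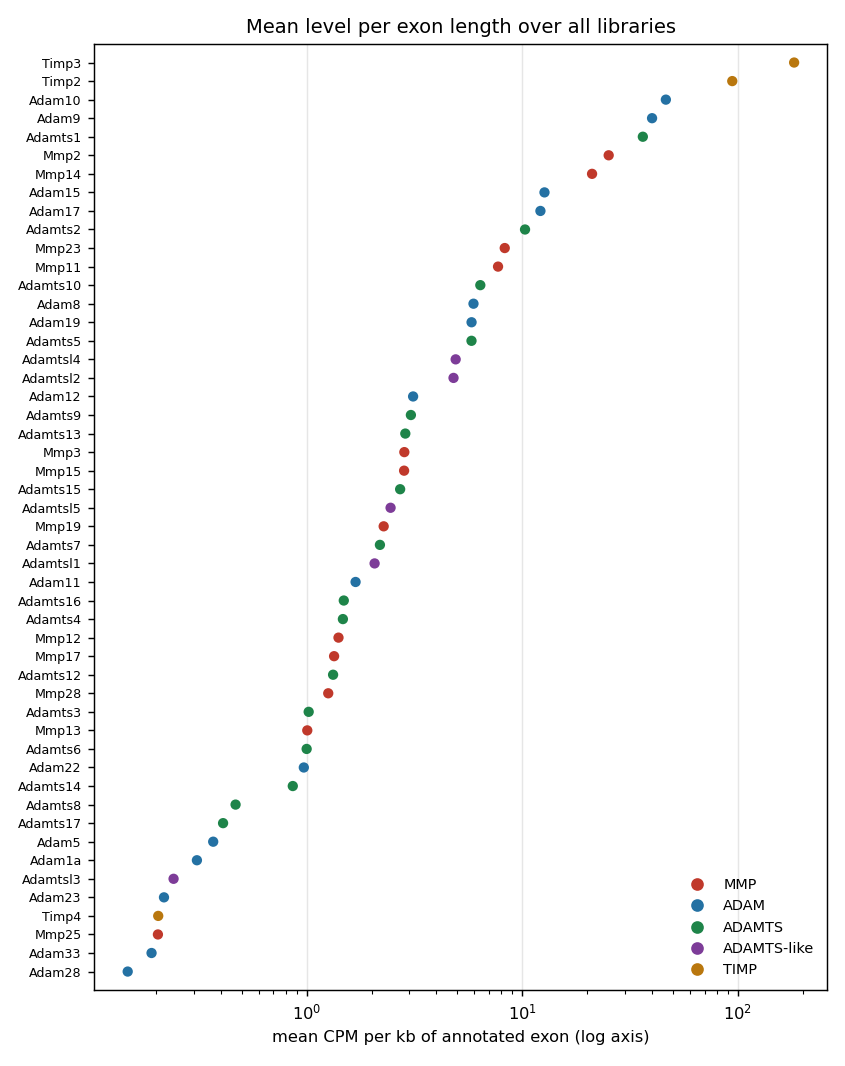
Mean level over all 6 libraries in CPM per kb of annotated exon (x axis, log scale) for the 50 members with a mean log2 CPM of at least 0, coloured by family. The inhibitors Timp3 (182) and Timp2 (94.1) stand at the top, and Adam10 (46.3) is the highest protease.

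None of the 67 members passed the authors' edgeR likelihood ratio test at an adjusted p under 0.05, beside 25 of 20138 genes (0.124%) in the authors' deposited table. At an unadjusted p under 0.05, 8 of the 67 did, beside 4.82% of all genes. Of these, 6 had a negative fold (9.0% of the members, beside 1.71% of all genes) and 2 a positive one (3.0%, beside 3.1% of all genes). Of the 50 members with a mean of at least 1 CPM, 5 were negative at this limit, beside 1.69% of all genes at that level, and 1 was positive, beside 2.38%. Negative log2 folds were more frequent than positive ones, with 39 against 28 members in the authors' deposited table, while over all genes 48.2% were negative and 49.8% positive. The median log2 fold of the members was -0.07, beside 0 over all genes of the authors' deposited table. Most folds were small, with 47 of 67 log2 folds under 0.5 in size. To pass the adjusted threshold a gene needed a fold of 4.02 approximate SE. For Adam15, the most precisely measured member, that came to a log2 fold of 0.76, and the median over the 50 members with a mean of at least 1 CPM was 1.29. Smaller differences than these were not detectable with these libraries after adjustment.

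**Figure D3:**
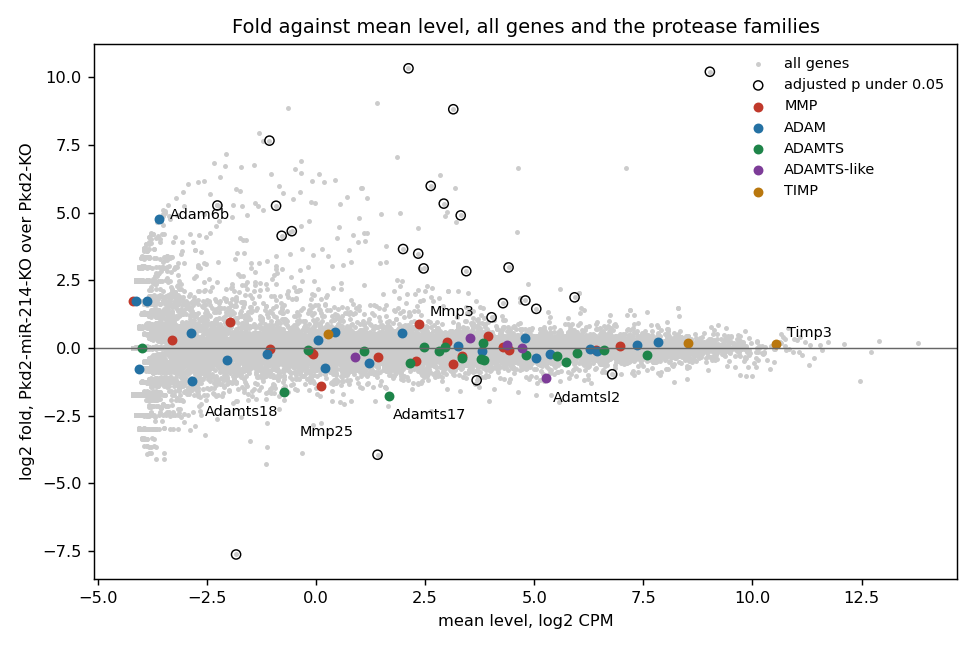
Fitted log2 fold (y axis) against mean log2 CPM (x axis) for all 20138 genes in grey, with the 67 members coloured by family and the 25 genes with an adjusted p under 0.05 ringed. No member is ringed, and Adamtsl2, Adamts17, Adamts18 and Mmp25 lie lowest among the members named in the plot.

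Marker lists of the kidney, of other cell types and of other organs are given as values, and their part in the folds of the members was not tested. Kidney tubule markers were abundant, with 8 of 8 present at a mean log2 CPM between 7.34 and 11.40. Their median log2 fold was -0.52 (2 of 8 positive) in the authors' deposited table, with 0 of 8 at an unadjusted p under 0.05. In bulk tissue, fewer cells of a type and less RNA per cell cannot be told apart. Marker lists of other cells and organs had median log2 folds of 3.84 for B cells (6 of 6 positive), 1.65 for neutrophils (9 of 10), 1.47 for erythroid cells (7 of 7), 4.95 for liver (7 of 7) and 2.24 for adrenal gland (8 of 8) in the authors' deposited table. For macrophages, fibroblasts and endothelium these medians were 0.17 (7 of 10 positive), -0.22 (3 of 8) and -0.10 (2 of 6). The macrophage median hides a wide range, with log2 folds from -0.37 to 5.99 in the authors' deposited table. At an adjusted p under 0.05 (edgeR), 2 of 10 macrophage and 1 of 8 adrenal markers passed, all with a positive fold, beside 0.124% of all genes. Testis and epididymis markers had a median of 0.02 (5 of 5 positive), with 4 of 9 listed genes not analysed here, and muscle and cartilage markers one of 0.08 (5 of 6). Xist, transcribed in female cells, was past the adjusted threshold (adjusted p = 0.0168, edgeR). Its fitted level was higher in Pkd2-miR-214-KO kidneys, by 10.21 ± 2.36 on the log2 scale. The Y-linked Kdm5d, Uty, Ddx3y and Eif2s3y had log2 folds between -0.66 and -0.14 in the authors' deposited table, each within 2 SE of 0. The labels do not give the sex of the animals. Whether the genotypes differ in sex, and its part in the folds of the members, was not tested. Mir214, the deleted locus, had a log2 fold of -7.62 ± 1.08 (adjusted p = 1.34e-08, edgeR) in the authors' deposited table, and the direction of all folds was read from it.

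Of the 19 ADAMTS proteases, 15 had a negative log2 fold and 4 a positive one, with a median of -0.26 and 0 past the adjusted threshold in the authors' deposited table, beside 48.2% negative and 49.8% positive over all genes. At an unadjusted p under 0.05 the family held 3 genes, all with a negative fold, beside 1.71% of all genes with a negative fold at this limit. The 3 were Adamts17, Adamts18 and Adamts10, secreted enzymes whose substrates are less well known than those of the proteoglycan-cutting members. Mutations in human ADAMTS10 and ADAMTS17 cause Weill-Marchesani syndrome, a connective tissue disorder that also arises from fibrillin-1.

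Adamts17 (chromosome 7, 66839735 to 67153171, plus strand) had a log2 fold of -1.76 ± 0.54 at a mean log2 CPM of 1.67 (adjusted p = 0.226, edgeR) in the authors' deposited table. Its approximate 95% interval ran from -2.82 to -0.69. Adamts18 (chromosome 8, 113697126 to 113848738, minus strand) stood at -1.63 ± 0.53, but at a mean log2 CPM of -0.73, per the authors' deposited table (adjusted p = 0.290, edgeR). Adamts10 (chromosome 17, 33524204 to 33553782, plus strand) was more abundant, with a mean log2 CPM of 5.72 and a smaller log2 fold of -0.50 ± 0.23 (adjusted p = 0.863, edgeR) in the authors' deposited table. The intervals of these 3 genes lay below 0, and none of them passed after adjustment over all genes.

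The proteoglycanases, which cut versican and aggrecan, had negative log2 folds for 7 of 7 genes, between -0.31 and -0.07, in the authors' deposited table, beside 48.2% of all genes. Adamts9 (-0.31 ± 0.21), Adamts1 (-0.27 ± 0.31), Adamts15 (-0.26 ± 0.24) and Adamts5 (-0.16 ± 0.20) were the more abundant of them in the authors' deposited table. Each of the 7 folds was within 2 SE of 0, and their shared sign was not tested. Adamts1 and Adamts5 are neighbours on chromosome 16, as are Adamts8 and Adamts15 on chromosome 9, and both genes of each pair had a negative fold. Adamts7 (-0.41 ± 0.26) and Adamts12 (-0.43 ± 0.33), which cleave cartilage oligomeric matrix protein, had similar folds in the authors' deposited table. Among the enzymes that remove the N-propeptide of procollagens, Adamts14 had a log2 fold of -0.56 ± 0.38, while the more abundant Adamts2 (-0.07 ± 0.23) and Adamts3 (0.02 ± 0.35) were near 0 in the authors' deposited table. Adamts13, which cuts von Willebrand factor and is made mainly in liver, had the highest fold of the family with 0.20 ± 0.41 in the authors' deposited table. The liver list, beside it, had a median log2 fold of 4.95. Adamts16 (-0.38 ± 0.32) and Adamts6 (0.03 ± 0.31) had intervals that include 0 in the authors' deposited table. Adamts20, in the proteoglycanase group, and Adamts19 had mean levels under 1 CPM.

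ADAMTS-like genes differed among themselves. Adamtsl2, which encodes a secreted glycoprotein that binds fibrillin-1 and latent TGF-beta binding protein, had the smallest p of all 67 members. It lies on chromosome 2 (27079379 to 27108981, plus strand), and it had a log2 fold of -1.12 ± 0.33 (adjusted p = 0.202, edgeR) at a mean log2 CPM of 5.26 per the authors' deposited table. That is a level of 0.46 times the Pkd2-KO level, with an approximate 95% interval of -1.77 to -0.47 on the log2 scale. Human ADAMTSL2 mutations cause geleophysic dysplasia, another disorder of fibrillin microfibrils. The other 4 genes had log2 folds of 0.38 ± 0.31 (Adamtsl5), 0.11 ± 0.24 (Adamtsl4), -0.01 ± 0.27 (Adamtsl1) and -0.33 ± 0.53 (Adamtsl3) in the authors' deposited table, all within 2 SE of 0. Adamtsl1 overlaps the annotated gene Sh3gl2 over 125024 bases on the same strand. The difference between Adamtsl2 and the other 4 genes was not tested.

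MMP genes were split, with 8 positive and 10 negative log2 folds and a median of -0.04 in the authors' deposited table. Mmp3, or stromelysin-1, a secreted protease of broad matrix specificity that also activates other MMPs, had the one positive fold at an unadjusted p under 0.05. Its log2 fold was 0.90 ± 0.43 (adjusted p = 0.930, edgeR) at a mean log2 CPM of 2.35 per the authors' deposited table, with an approximate 95% interval of 0.06 to 1.74. Past the same limit, 2 folds were negative, both of membrane MMPs held by a GPI anchor. Mmp25 (chromosome 17, 23628311 to 23645277, minus strand) had a log2 fold of -1.39 ± 0.62 at a mean log2 CPM of 0.12 (adjusted p = 0.852, edgeR), and Mmp17 (chromosome 5, 129584169 to 129611099, plus strand) one of -0.60 ± 0.30 at 3.15 (adjusted p = 1, edgeR), in the authors' deposited table. MMP25 is known in humans as a protease of neutrophils. Their marker list had log2 folds from -0.16 to 6.63 with a median of 1.65 in the authors' deposited table. The median was 1.32 for the 5 of 10 markers with a mean log2 CPM of at least 0. Whether neutrophil content has a part in the Mmp25 fold was not tested. The membrane MMPs with a transmembrane segment were Mmp14 (0.08 ± 0.22), Mmp15 (0.44 ± 0.34), Mmp16 (-0.20 ± 0.54) and Mmp24 (-0.15 ± 0.63) in the authors' deposited table, and each interval included 0.

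The gelatinase Mmp2 had a log2 fold of -0.09 with an approximate 95% interval of -0.60 to 0.42 in the authors' deposited table, and Mmp14, which activates it, had an interval of -0.34 to 0.51. Larger differences than these bounds lie outside the intervals for this pair. Mmp11 (-0.05 ± 0.27), Mmp23 (0.03 ± 0.25), Mmp19 (0.22 ± 0.40) and Mmp28 (-0.46 ± 0.35) were likewise within 2 SE of 0 in the authors' deposited table.

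The secreted MMPs of the chromosome 9 cluster did not share a direction. The cluster holds 7 members within 402 kb, and 4 of their log2 folds were positive. In order of position, Mmp13, collagenase-3, had a log2 fold of -0.31 ± 0.56, Mmp12, the macrophage elastase, -0.30 ± 0.32, and Mmp3 the 0.90 given above, in the authors' deposited table. Mmp1b, Mmp10, Mmp27 and Mmp20, the enamel protease, had mean levels under 1 CPM, where fitted folds depend on the prior count. The annotated spans of Mmp1b and Mmp12 overlap on opposite strands over 1261 bases, and overlap of their exons was not examined. Where exons overlap, reads can be told apart only by strand, whose use in counting is not stated. In the same region Mmp7, which is not in the set, had a log2 fold of 2.98 ± 0.62 and Mmp8 one of 1.61 ± 0.59 in the authors' deposited table. Beside the elastase Mmp12, the macrophage list had a median of 0.17 in the authors' deposited table, with log2 folds from -0.37 to 5.99.

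ADAM genes showed no common direction, with 11 positive and 11 negative log2 folds and a median of 0.01 in the authors' deposited table. The sheddases were measured most precisely. Adam10, which releases Notch and cadherins, had a log2 fold of 0.23 with an approximate 95% interval of -0.21 to 0.67 in the authors' deposited table. For Adam17, which releases TNF and ligands of the EGF receptor, the interval ran from -0.50 to 0.28, and for Adam9 from -0.30 to 0.54, both computed from the authors' deposited table. Adam15, expressed in endothelium and epithelium, had an interval of -0.41 to 0.33. Changes of 2-fold, a log2 fold of 1 in either direction, therefore lie outside the intervals of these 4 genes.

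Adam8 (0.37 ± 0.32), a protease of leukocytes, Adam12 (-0.37 ± 0.36) and Adam19 (-0.23 ± 0.29), both of mesenchymal cells, had intervals that include 0 in the authors' deposited table. Adam28 (0.59 ± 0.78), first described in lymphocytes, and Adam33 (0.30 ± 0.49) were near 1 CPM and imprecise in the authors' deposited table. Adam11 (0.06 ± 0.34), Adam22 (-0.09 ± 0.26) and Adam23 (0.55 ± 0.42) lack a working catalytic site and act as receptors of LGI proteins in neurons, and each of these log2 folds from the authors' deposited table was within 2 SE of 0.

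Adam6b was the one ADAM with an unadjusted p under 0.05. It had a log2 fold of 4.76 ± 1.84 at a mean log2 CPM of -3.59, close to the lowest value of the table, -4.19, in the authors' deposited table (adjusted p = 0.589, edgeR). At such a level the size of the fitted fold depends on the prior count. The gene lies on chromosome 12 from 113489511 to 113492057, within the immunoglobulin heavy chain locus, and B cell markers had log2 folds between 1.36 and 4.83 for 6 of 6 genes in the authors' deposited table. Whether the value of Adam6b goes with them was not tested. The other ADAMs typical of testis had scattered folds, such as -1.20 ± 0.86 for Adam21 and -0.72 ± 0.52 for Adam5 in the authors' deposited table. Adam5 lies in a row of 5 ADAM genes on chromosome 8 within 415 kb, with Adam18, Adam3, Adam32 and Adam9, and only Adam5 and Adam9 of these had a mean above 1 CPM. The annotated spans of Adam1a and Adam4 overlap those of Mapkapk5 and Cox16 on the same strand. Overlap of exons was not examined, so the assignment of their reads may be uncertain.

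The inhibitors had positive log2 folds for 3 of 3 members, beside 49.8% of all genes, and none of them was past either limit. Timp2, which inhibits MMPs and also helps Mmp14 to activate Mmp2, had 0.19 ± 0.24, Timp3 0.15 ± 0.31 and Timp4 0.51 ± 0.94 as log2 folds in the authors' deposited table. Timp3 lies within Syn3, and Timp4 within Syn2, on the opposite strand. The annotated span of Timp2 overlaps that of Cep295nl over 10141 bases on the same strand, where strand cannot separate reads. Whether exons of the 2 genes overlap there was not examined. The intervals of Timp2 (-0.29 to 0.67) and Timp3 (-0.47 to 0.77) include 0 and leave out a 2-fold difference.

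**Figure D4:**
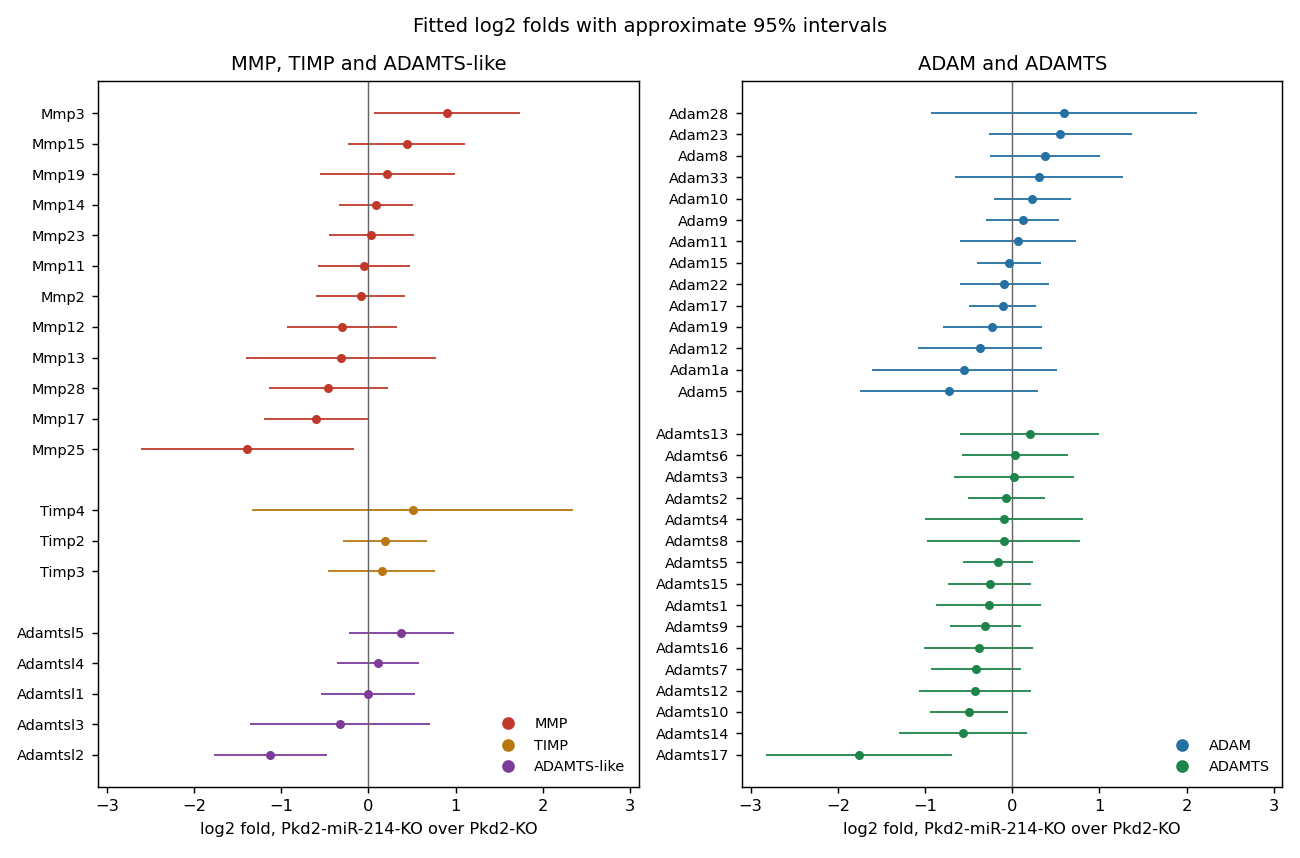
Fitted log2 folds with approximate 95% intervals (horizontal bars) for the 50 members with a mean log2 CPM of at least 0, by family. Most ADAMTS genes lie left of 0, and the intervals of Adamts17, Adamts10, Adamtsl2, Mmp25 and Mmp17 lie below 0 and that of Mmp3 above it.

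Genes that work with these families were described next, from 6 lists with 0 genes past the adjusted threshold in each. Among 12 other inhibitors and modulators of metalloproteinases, 3 had a negative and 1 a positive fold at an unadjusted p under 0.05. Over all genes the shares at this limit were 1.71% with a negative and 3.1% with a positive fold. Sfrp1, a Wnt antagonist that also inhibits ADAM10, had a log2 fold of -0.91 ± 0.25 (adjusted p = 0.166, edgeR), and Pcolce, which enhances procollagen C-proteinase, one of -0.64 ± 0.22 in the authors' deposited table. Reck, a membrane-anchored inhibitor of MMPs, was the third with -0.47 ± 0.23, and the one positive fold was that of Pzp, a liver-made inhibitor of broad range, with 5.04 ± 1.71 in the authors' deposited table. Reck and Pzp were chosen after their values were seen. The plasminogen system held 1 gene in each direction of 10, with log2 folds of 4.99 ± 1.56 for Plg, plasminogen, and -0.87 ± 0.34 for Serpinf2, alpha-2-antiplasmin, in the authors' deposited table. Plg and Pzp are made by hepatocytes, whose marker list had a median of 4.95, and the part of liver RNA in their folds was not tested.

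Other metzincins held 2 negative and 1 positive fold at an unadjusted p under 0.05 among 8 genes, beside 1.71% and 3.1% of all genes. Pappa2, a protease of insulin-like growth factor binding proteins, had a log2 fold of -1.43 ± 0.47, and Tll2, a tolloid protease, one of 4.26 ± 1.57 at a mean log2 CPM of -3.78 per the authors' deposited table. Among 13 convertases and partners of ADAM maturation, 2 were positive at that limit. They were Tspan15 (0.68 ± 0.26), a tetraspanin that directs ADAM10, and Tspan10 (5.27 ± 1.61), the second at a mean log2 CPM of -3.39, per the authors' deposited table. Furin, which removes prodomains, had -0.04 ± 0.24 and Rhbdf2, which carries ADAM17 to the surface, -0.09 ± 0.22 as log2 folds in the authors' deposited table, and both were chosen after their values were seen.

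Substrates of ADAM10 and ADAM17 had a median log2 fold of 0.02 over 23 genes in the authors' deposited table. At an unadjusted p under 0.05, 2 had a negative fold, beside 1.71% of all genes. Havcr1, which encodes KIM-1, had the smaller p of these 2, with a log2 fold of -1.18 ± 0.43 per the authors' deposited table. Matrix substrates of MMPs and ADAMTS enzymes had a median log2 fold of -0.29 over 21 genes in the authors' deposited table. Of these, 14 were negative, beside 48.2% of all genes. At the same unadjusted limit 2 genes stood in each direction, beside 1.71% of all genes with a negative and 3.1% with a positive fold. The proteoglycan gene Dcn had a log2 fold of 1.18 ± 0.31 (adjusted p = 0.102, edgeR) and the elastin gene Eln one of -0.83 ± 0.31 (adjusted p = 0.531, edgeR) in the authors' deposited table. The signs of the matrix genes thus differed, and none passed after adjustment.

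**Figure D5:**
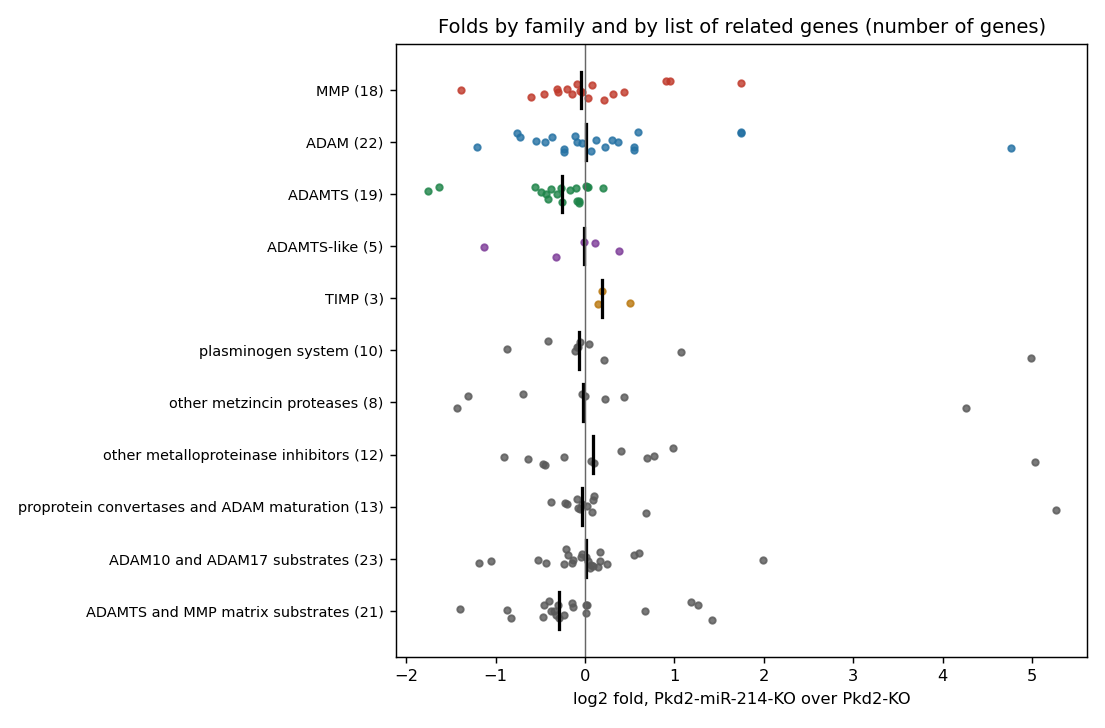
Fitted log2 folds (x axis) of the members by family and of 6 lists of related genes, each point 1 gene and each black bar the median. ADAMTS genes (median -0.26) and matrix substrates (median -0.29) lie left of 0, while the ADAM (0.01), MMP (-0.04) and ADAM substrate (0.02) medians lie close to it.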

How the data were processed

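Kidney RNA of 6 mice was sequenced after library preparation with a stranded kit, per the labels' protocols. TopHat2 2.0.12, edgeR and mm10 are named in the submitters' processing notes. The authors' deposited table holds, per the file headers, a log2 fold, a mean log2 CPM, a likelihood ratio (a score on 1 degree of freedom) and p-values before and after adjustment for each of 20138 genes. The adjusted values equal a Benjamini-Hochberg adjustment over all genes with a largest difference of 5.1e-14. For filters, normalization and the use of strand in counting, the settings are not stated there or in the labels. The labels do not say that the samples come from separate litters, so p-values measure the spread between these samples.

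The approximate SE is the absolute log2 fold over the root of the likelihood ratio, with 1.96 SE on either side as an approximate 95% interval. It is poor for low counts. The fallback for a table of fitted values, the authors' test, was used, with no list test. The members and lists were chosen with earlier results of these data known. Named members were the 3 smallest p per family, all TIMPs, the 4 largest folds per direction at a mean of at least 1 CPM, the 6 highest means and the 2 smallest p per list; others are given by role. A gene under this rule is not reported here. Of 80 listed family genes, 13 are not analysed here. All 67 members matched GENCODE M21 by symbol, as did 19060 genes (94.6%). The steps were tested on simulated data. The software was scipy 1.17.1, numpy 2.4.6, pandas 2.3.3 and matplotlib 3.10.9 under Python 3.11.15.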

Additional observations from a re-analysis of the deposited data

How the results depend on the processing

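The count of 0 members past the adjusted threshold was also 0 when p was adjusted over genes with a mean log2 CPM of at least 0 or 1, and it was 1, Mmp7, with the 4 left-out genes put back. An adjustment with an estimated share of null genes put that share at 1 and so equals the one used. Under a t tail on 4 degrees of freedom no gene of the whole table passed after adjustment, so its count of 0 members says nothing about them. At an unadjusted p under 0.05 this tail gave 241 genes (1.20%), and the share of all genes with a negative fold was 0.268%. The members at this limit were 0 of positive and 3 of negative fold (Adamtsl2, Adamts17 and Adamts18). The 2 members with a positive fold at that limit became 1 at a mean log2 CPM of at least 0 or 1, where Adam6b is left out, and 4 with the left-out genes put back. The 28 positive folds became 17 at a mean log2 CPM of at least 1, where fewer members are counted. The 21 members with a 7-base miR-214-3p match became 39 with a 6-base match and 1 with an 8-base match, and 5 held a 7-base match to miR-214-5p, an alternative chosen after seeing the data. The median log2 fold of the members lay between -0.09 and -0.05 under the settings tried, and no spread of this median was computed. The adjusted p of named members stayed above 0.05 in 39 of 39 values (smallest 0.197), which under the t tail holds for every gene. Leaving out a library was not run, since the table holds no values per library. No paired analysis was possible because values per library were not analysed here and the labels give the genotypes no shared numbers.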

Other observations

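Genes of the elastic fibre and of fibrillin microfibrils were looked at because Adamtsl2, Adamts10 and Adamts17 act on or bind these structures. The 13 genes were chosen after values had been seen, so their counts are given with no test. The authors' deposited table gives 13 log2 folds for them, with a median of -0.30. Of these, 11 were negative, beside 48.2% of all genes. At an unadjusted p under 0.05 there were 6 genes with a negative and 1 with a positive fold, beside 1.71% and 3.1% of all genes. For a list chosen in this way, the distance from these shares is no measure of enrichment. Fbln5, fibulin-5, which guides elastin onto microfibrils, had a log2 fold of -0.90 ± 0.26 (adjusted p = 0.196, edgeR) and Mfap2, a microfibril glycoprotein, one of -1.08 ± 0.34 (adjusted p = 0.259, edgeR) in the authors' deposited table. Eln, Efemp2 (fibulin-4), Ltbp4 and Fbn2 were the others, with log2 folds of -0.83 ± 0.31, -0.59 ± 0.24, -0.56 ± 0.24 and -0.87 ± 0.42 in the authors' deposited table. Lox, the enzyme that cross-links elastin and collagen, had the positive fold, 0.87 ± 0.38, in the authors' deposited table. Fbn1, the main fibrillin of mature tissue, had -0.30 ± 0.23 and Ltbp1 -0.04 ± 0.25 as log2 folds in the authors' deposited table. None of the 13 genes passed after adjustment over all genes.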
